A study of Mus musculus with 16 samples.

Results

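The 10 genes described here make, elongate, desaturate and activate long-chain fatty acids in C2C12, an immortal mouse myoblast line that fuses into myotubes in culture. They were chosen by symbol for their place in the pathway, with earlier results of these data known, among the 31053 genes of the expression table: Acaca and Fasn (synthesis), Elovl6 (elongation), Scd1, Scd2, Fads1 and Fads2 (desaturation), and Acsl1, Acsl3 and Acsl4 (activation). Each symbol was found, and 9 of the 10 genes were among the 10767 abundant enough to test, with Fads2 as the exception. mRNA was sequenced in 4 groups of 4 biological replicates: WT myoblasts, WT myotubes, Fam134bKO myoblasts and Fam134bKO myotubes. All cells were kept in DMEM with 10% serum, and myotubes formed after the cultures became confluent, with no switch of medium. Fam134b encodes an endoplasmic reticulum (ER) membrane protein that bends the ER and binds the autophagy machinery. Fam134bKO cells were made by lentiviral delivery of Cas9 and guides against Fam134b, followed by drug selection, and the methods describe no single-cell cloning. Genotype and stage come from the sample titles. The separate genotype field reads unknown for every sample, and no day of culture is given. Both genotypes were compared at each stage, and both stages within each genotype, to learn how loss of Fam134b changes cells before and after differentiation. The methods refer to the knockout as a cell line, so a difference between cell lines cannot be told apart here from loss of Fam134b.

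Fatty acid synthesis starts in the cytosol, where acetyl-CoA carboxylase forms malonyl-CoA and fatty acid synthase builds palmitate from it. The remaining steps sit on the ER membrane: ELOVL enzymes lengthen the chain, SCD and FADS enzymes insert double bonds, and acyl-CoA synthetases couple fatty acids to coenzyme A so that they can enter phospholipids, triglycerides or oxidation. Transcription of many of these genes is driven by SREBP and LXR proteins, and in muscle the products serve both the growing membrane system of the myotube and its fuel supply.

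A value below is a normalized count, the reads of a gene scaled by a factor of each sample, and log2 fold changes are differences of log2(normalized count + 1). A gene was called changed at an adjusted p under 0.05 from limma with Benjamini-Hochberg adjustment over the 10767 genes tested. Reads on genes ranged from 2686680 to 3287461 in 14 of the 16 samples, and the 2 shallow samples, Fam134bKO myotubes replicates 2 and 4, held 1790524 and 1484750. A count of 3 reads, taken as the limit of detection, is a normalized count of 2.49 to 5.99, and such limits cover counting error only. Fam134b was at 207 ± 42.0 and 232 ± 61.6 (SD, n = 4) in WT myoblasts and myotubes, and at 27.5 ± 5.49 and 41.8 ± 14.0 in the Fam134bKO groups. Levels of different genes are not compared, because the values are not scaled by length.

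The muscle markers follow the stage labels and also separate the genotypes. All 9 myotube markers (Myog, Myh3, Actc1, Ckm, Mylpf, Tnnc2, Acta1, Mymk and Mef2c) were called higher in myotubes of both genotypes. Summed over the list, normalized counts spanned 1693 to 2542 for WT myoblasts and 26884 to 40229 for WT myotubes. For Fam134bKO they spanned 17.5 to 22.4 at the myoblast stage and 12078 to 16024 at the myotube stage. In Fam134bKO myoblasts 7 of the 9 were at 3 reads or fewer in every sample, and Myog, an early myogenic factor, was at 0. All 9 were called lower in Fam134bKO than in WT myoblasts, and 6 were called lower in Fam134bKO than in WT myotubes. The part of this difference in differentiation in any result below was not tested, and in these bulk samples fewer cells of a type cannot be told apart from less RNA per cell. Of 9 adipocyte markers, 7, including Adipoq, Plin1 and Fabp4, were at 3 reads or fewer in every sample, and the summed list lay between 34.0 and 89.2 across all groups. The 2 tested were Pparg and Cebpa. In Fam134bKO against WT myoblasts 1 of the 2 was called higher (log2 fold changes -0.21 and 1.84, 7.26% of all genes higher). In myotubes 0 were called (-0.16 and 0.55, 23.4% of all genes). On differentiation 0 were called in WT (-0.98 and -0.52, 23.0% of all genes). In Fam134bKO 1 was called lower (-2.27 and -0.47, 16.1% of all genes lower). The 6 fibroblast markers summed to 2412 to 4759 in WT myoblasts and 10108 to 16442 in WT myotubes. In Fam134bKO myoblasts and myotubes they summed to 3603 to 12488 and 12695 to 25201. Of the 5 tested, 2 were called higher and 0 lower in Fam134bKO against WT at each stage. Higher calls were 7.26% of all genes in myoblasts and 9.74% in myotubes. The log2 fold changes of the 5 ran from 0.16 to 3.75 in myoblasts and from 0.10 to 1.99 in myotubes. Thy1 was at 3 reads or fewer in every sample. The 7 myoblast and proliferation markers, Myf5 and Myod1 among them, summed to between 2423 and 3848 in both myoblast groups, to between 2451 and 3254 in WT myotubes and to between 1297 and 1891 in Fam134bKO myotubes. These sums hide differences between single markers. Of the 6 tested, 0 were called higher and 1 lower in Fam134bKO against WT myoblasts (15.8% of all genes), with log2 fold changes from -4.81 to 0.68. In myotubes 0 were called higher and 3 lower (23.4% of all genes), with log2 fold changes from -1.76 to 0.47.

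The promoters of Fasn, Acsl3 and Acsl4 are shown as examples of a gene that was lower (Fasn) and of genes that were higher (Acsl3 and Acsl4) on WT differentiation. Elovl6 and Acsl1 passed that test too, and the matches in their windows are given as counts. Each line gives the 250 bases before the annotated start in RefSeq (GRCm38.p6), 5′ to 3′ on the strand of the gene, for Fasn chr11:120824548-120824797 (minus strand), for Acsl3 chr1:78657575-78657824 (plus strand) and for Acsl4 chrX:142390536-142390785 (minus strand). Capitals mark matches, on either strand, to the NF-Y box CCAAT, the GC box GGGCGG of Sp factors, the E-box CACGTG of USF and SREBP proteins, the E-box CAGCTG of myogenic factors or the sterol element core CACCCCAC.
Fasn: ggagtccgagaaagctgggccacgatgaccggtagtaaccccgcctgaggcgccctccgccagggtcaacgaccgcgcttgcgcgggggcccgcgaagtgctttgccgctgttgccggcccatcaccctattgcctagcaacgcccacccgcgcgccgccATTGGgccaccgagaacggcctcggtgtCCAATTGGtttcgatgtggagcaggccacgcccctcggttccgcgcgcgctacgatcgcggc
Acsl3: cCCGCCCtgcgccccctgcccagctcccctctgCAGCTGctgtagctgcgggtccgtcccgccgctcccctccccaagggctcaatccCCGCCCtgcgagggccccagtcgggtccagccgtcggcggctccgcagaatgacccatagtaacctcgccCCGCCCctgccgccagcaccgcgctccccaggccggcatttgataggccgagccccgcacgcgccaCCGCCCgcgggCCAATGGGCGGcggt
Acsl4: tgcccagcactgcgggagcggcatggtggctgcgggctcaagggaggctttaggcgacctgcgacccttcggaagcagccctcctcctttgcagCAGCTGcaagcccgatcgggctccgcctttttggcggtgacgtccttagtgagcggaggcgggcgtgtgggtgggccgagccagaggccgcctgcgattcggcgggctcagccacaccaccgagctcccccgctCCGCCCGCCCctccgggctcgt
The Fasn window held 3 matches to CCAAT, and 2 of them overlap. The Acsl3 window held 5 matches to GGGCGG, 1 to CCAAT, which adjoins the last GC box, and 1 to CAGCTG. The Acsl4 window held 2 overlapping GC boxes and 1 CAGCTG. None of these 3 windows held CACGTG or CACCCCAC. The Elovl6 and Acaca windows held no match to any of the 5 motifs, and the Fads2 window held 1 GGGCGG. The Acaca window (chr11:84195188-84195437, plus strand) lies inside the gene, which spans chr11:84129672-84401651. It therefore does not describe the sequence before the 5′ end of Acaca. Acsl1 has 2 annotated starts, of which 1 had 4 matches to GGGCGG in its window and the other 2 to CCAAT, 1 to CAGCTG and 1 to CACCCCAC. Among 32851 RefSeq promoters of the same length, CCAAT occurred in 33.8%, GGGCGG in 32.7%, CACGTG in 6.02%, CAGCTG in 13% and CACCCCAC in 2.58%. These are letter matches and do not show binding. Of the 10 genes, 7 had a promoter in the RefSeq set used here.

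On differentiation of WT cells the steps of the pathway moved in different directions: 6 of the 9 tested genes were called, against 23.0% of all genes tested. Acsl1, Acsl3, Acsl4 and Scd1 were higher in myotubes (higher calls were 13.8% of all genes tested), and Fasn and Elovl6 were lower (9.16% of all genes), and 8 of the 9 had an unadjusted p under 0.05 (35.4% of all genes). On differentiation of Fam134bKO cells 2 of the 9 were called, Acsl4 higher (17.3% of all genes) and Acaca lower (16.1%), against 33.4% of all genes tested, and 4 had an unadjusted p under 0.05 (43.7%). Between genotypes, 0 of the 9 were called in myoblasts by limma, with 3 at an unadjusted p under 0.05 (Fasn, Elovl6 and Acsl1, all genes 27.4%). Of all genes 15.8% were called there, 7.26% higher and 8.50% lower in Fam134bKO. In myotubes 2 of the 9 were called, Scd1 and Fads1, both lower in Fam134bKO and both also the only genes of the 9 at an unadjusted p under 0.05 (all genes 35.7%). Of all genes 23.4% were called there, 9.74% higher and 13.7% lower. The test of whether the differentiation change differs between genotypes, the interaction, called 0 of the 9 by limma against 3.45% of all genes (1.97% positive and 1.48% negative), with 1 (Fads1) at an unadjusted p under 0.05 (all genes 17.4%). The median log2 fold change of the 9 was 0.65 on WT differentiation (all genes -0.01), 0.03 on Fam134bKO differentiation (all genes -0.02), -0.09 in Fam134bKO against WT myoblasts (all genes -0.01) and -0.25 in Fam134bKO against WT myotubes (all genes -0.07). The 4 comparisons share samples pairwise, since each group enters 2 of them, and they are therefore not independent of each other.

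**Figure D1:**
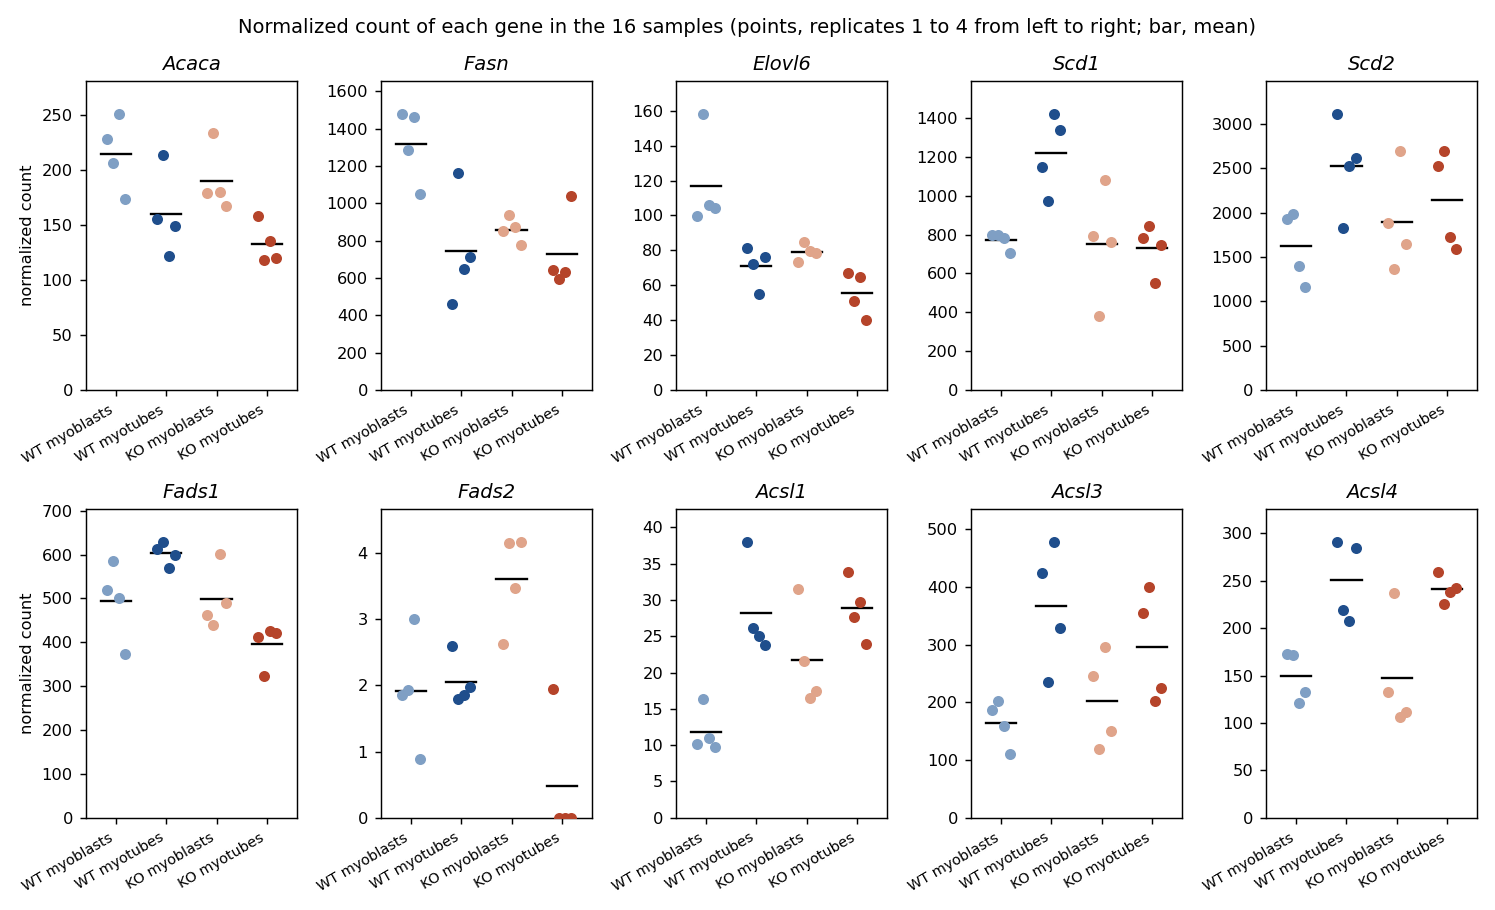
Normalized count (vertical axis, linear, from 0) of each of the 10 genes in the 16 samples, in 4 groups on the horizontal axis (points, replicates 1 to 4 from left to right; bar, group mean; KO is Fam134bKO). Scd1 lies at 970 to 1419 in WT myotubes and at or below 845 in Fam134bKO myotubes, Fasn falls from a WT myoblast mean of 1319 to 747 in WT myotubes, and Fads2 stays at or below 4.17 throughout.

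The 2 cytosolic synthesis genes were lower in myotubes, each with a call in a single genotype. Acaca (ENSMUSG00000020532, chr11:84129672-84401651, GRCm38 as for all genes below) encodes acetyl-CoA carboxylase alpha, the rate-limiting enzyme of fatty acid synthesis. Its normalized counts were 228, 207, 251 and 174 in WT myoblasts and 156, 214, 122 and 149 in WT myotubes (replicates 1 to 4). They were 179, 234, 180 and 167 in Fam134bKO myoblasts and 158, 118, 136 and 120 in Fam134bKO myotubes. The Fam134bKO groups do not overlap, whereas in WT the myotube replicate 2 lies within the myoblast range. The log2 fold change on Fam134bKO differentiation was -0.51 (standard error 0.19, adjusted p = 0.0389 from limma). On WT differentiation it was -0.44 (adjusted p = 0.0934, 95% interval -0.83 to -0.05), and the interaction was -0.07 (95% interval -0.62 to 0.48), so a difference between the genotypes was not shown. The Fam134bKO call held in 17 of 27 alternatives and was lost without any 1 of Fam134bKO myoblasts 1, 2 or 3 or Fam134bKO myotubes 2, 3 or 4 (adjusted p from 0.0551 to 0.114). Without both shallow myotube samples the log2 fold change was -0.36 (adjusted p = 0.224). In Fam134bKO against WT myotubes it was -0.25 (adjusted p = 0.368), and -0.10 without those samples. Acaca shares 14.8% of the last 500 bases of its transcripts with the pseudogene Gm5182, so its reads could be assigned ambiguously.

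Fasn (ENSMUSG00000025153, chr11:120805846-120824547) encodes fatty acid synthase, which builds palmitate. Its counts were 1478, 1288, 1461 and 1050 in WT myoblasts and 459, 1164, 649 and 715 in WT myotubes. The Fam134bKO myoblast counts were 851, 940, 871 and 776, and in Fam134bKO myotubes 643, 597, 630 and 1037. WT myoblasts lie above every Fam134bKO myoblast sample, and in each myotube group a single sample, WT replicate 2 and Fam134bKO replicate 4, lies above the other 3. Fasn fell on WT differentiation to 0.540 of its myoblast level (log2 fold change -0.89, standard error 0.22, adjusted p = 0.00711 from limma), and this call held in all 27 alternatives run. On Fam134bKO differentiation the log2 fold change was -0.28 (95% interval -0.74 to 0.19, adjusted p = 0.362), and -0.43 without both shallow samples (adjusted p = 0.204). The interaction was 0.61 (adjusted p = 0.325 from limma, 95% interval -0.05 to 1.27). In myoblasts Fasn was at 0.656 of the WT level in Fam134bKO cells (log2 fold change -0.61, adjusted p = 0.0730), a difference that did not pass the test with all 16 samples. It passed with the 8 myoblast samples alone (adjusted p = 0.00488), and without WT myotubes 1 (0.0395), WT myotubes 2 (0.0283) or Fam134bKO myotubes 4 (0.0430), each of which changes only the shared spread. Between myotubes of the 2 genotypes the log2 fold change was 0.00 (95% interval -0.46 to 0.47).

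Among 10 other genes that supply carbon and cofactors for synthesis, 8 were tested. On WT differentiation 0 were higher and 2 lower, and on Fam134bKO differentiation 1 was higher and 5 lower. The calls were 25% of the list on WT differentiation (23.0% of all genes) and 75% on Fam134bKO differentiation (33.4% of all genes). Acly, which makes cytosolic acetyl-CoA from citrate, fell in both genotypes, with log2 fold changes of -0.74 in WT (adjusted p = 0.00287 from limma) and -0.94 in Fam134bKO (adjusted p = 1.75e-04). Between genotypes 0 of the 8 were called in myoblasts (15.8% of all genes), with 2 at an unadjusted p under 0.05 (27.4% of all genes). In myotubes the 1 call (12.5% of the list, 23.4% of all genes) was Me1, malic enzyme, a source of NADPH, at 467 ± 14.3 in Fam134bKO and 269 ± 13.0 in WT (SD, n = 4, log2 fold change 0.80, adjusted p = 3.21e-04). The median log2 fold change of the 8 was -0.15 on WT and -0.83 on Fam134bKO differentiation.

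Elovl6 (ENSMUSG00000041220, chr3:129532355-129638495), which extends palmitate to stearate, was the elongase among the 10 genes and was lower in myotubes. Its counts were 99.7, 158, 106 and 104 in WT myoblasts and 81.2, 72.0, 54.8 and 76.3 in WT myotubes. The Fam134bKO myoblast counts were 73.5, 84.7, 79.8 and 78.4, and in Fam134bKO myotubes 66.8, 51.1, 64.8 and 40.0. The groups do not overlap between stages in either genotype, nor between genotypes in myoblasts. On WT differentiation Elovl6 fell to 0.615 of the myoblast level (log2 fold change -0.70, standard error 0.21, adjusted p = 0.0203 from limma). This call was lost without WT myoblasts 2 (log2 fold change -0.55, adjusted p = 0.0820), whose count of 158 is well above the other 3, and without WT myotubes 3 (-0.58, adjusted p = 0.0749). On Fam134bKO differentiation the log2 fold change was -0.53 (adjusted p = 0.0586, 95% interval -0.96 to -0.09). Against WT it was -0.54 in Fam134bKO myoblasts (adjusted p = 0.0938) and -0.36 in Fam134bKO myotubes (adjusted p = 0.229), and neither passed the test. Without both shallow samples the change on Fam134bKO differentiation was -0.26 (adjusted p = 0.401) and the difference between myotubes -0.09 (adjusted p = 0.807). The myoblast difference passed in that setting (adjusted p = 0.0442), in which neither of its groups loses a sample, and with the 8 myoblast samples alone (adjusted p = 0.0335). Its transcript ends share 11.2% with Gm11295, and the antisense gene Gm35986 overlaps it. The strand setting of the counting is not given in the sources used here, so reads from the 2 strands may not be separated.

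Other genes of the elongation cycle gave calls in both directions. Of 12 listed, 10 were tested: 2 were higher and 0 lower on WT differentiation, and 3 were higher and 3 lower on Fam134bKO differentiation. These are 20% and 60% of the list, against 23.0% and 33.4% of all genes. Elovl5, an elongase of polyunsaturated chains, was higher in myotubes of both genotypes, by log2 fold changes of 1.25 in WT (adjusted p = 3.83e-04 from limma) and 1.05 in Fam134bKO (adjusted p = 0.00110). Hacd1, the muscle-enriched dehydratase of the cycle, was higher by 1.21 and 1.98, and in Fam134bKO myoblasts it was lower than in WT by a log2 fold change of -0.82 (adjusted p = 0.00186). Tecr, which reduces the elongated chain in the last step, differed between genotypes in its response to differentiation. It was at 375 ± 107 and 535 ± 98.2 in WT myoblasts and myotubes, and at 433 ± 87.4 and 278 ± 28.9 in Fam134bKO (SD, n = 4). The interaction for Tecr was -1.16 (adjusted p = 0.0247), and the log2 fold change in Fam134bKO against WT myotubes was -0.93 (adjusted p = 0.00192). Elovl4, which makes very long chains, was also lower in Fam134bKO myotubes (7.75 ± 6.61 against 24.5 ± 9.49 in WT), with 0 to 9 reads a sample. The Elovl4 call was lost with only the 8 myotube samples (adjusted p = 0.0692), and the Tecr interaction was lost without any 1 of WT myoblasts 2 or 4, WT myotubes 3 or Fam134bKO myoblasts 1, 3 or 4 (adjusted p from 0.0555 to 0.0667) and without both shallow samples (-1.07, adjusted p = 0.0651). In myoblasts 1 of the 10 was higher and 1 lower in Fam134bKO, and in myotubes 0 were higher and 2 lower, 20% of the list each time (15.8% and 23.4% of all genes).

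Both stearoyl-CoA desaturases, which place the first double bond to make oleate and palmitoleate, had higher means in WT myotubes than in WT myoblasts, and Scd1 passed the test. Scd1 (ENSMUSG00000037071, chr19:44394455-44407879) had counts of 798, 798, 784 and 704 in WT myoblasts and 1147, 970, 1419 and 1338 in WT myotubes. In Fam134bKO myoblasts the counts were 794, 380, 1078 and 762, and in Fam134bKO myotubes 783, 845, 551 and 745. Every WT myotube sample lies above every WT myoblast and every Fam134bKO myotube sample, while Fam134bKO myoblasts span a wider range than both Fam134bKO myotubes and WT myoblasts. Scd1 was 1.57-fold higher in WT myotubes than in WT myoblasts (log2 fold change 0.65, standard error 0.23, adjusted p = 0.0470 from limma). On Fam134bKO differentiation the log2 fold change was 0.03 (95% interval -0.45 to 0.51, adjusted p = 0.927). In Fam134bKO myotubes Scd1 was at 0.599 of its level in WT myotubes (log2 fold change -0.74, standard error 0.23, adjusted p = 0.0238). The interaction of -0.61 did not pass (adjusted p = 0.336 from limma, 95% interval -1.29 to 0.06). Without Fam134bKO myoblasts 2, the sample at 380, the interaction was -0.91 (adjusted p = 0.0394). Over all genes tested this sample also lay further from its group mean than the rest of its group. Its root mean square log2 distance was 0.440, against 0.260 to 0.312 for Fam134bKO myoblasts 1, 3 and 4.

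The 2 Scd1 calls differed in how they held up. The WT differentiation call lay close to the threshold and held in 15 of 27 alternatives: it was lost with no filter (adjusted p = 0.0700), with scaling to equal totals (0.0578), and without any 1 of the 4 WT myoblast samples, WT myotubes 1, 3 or 4, Fam134bKO myoblasts 1 or 4 or Fam134bKO myotubes 1 (0.0502 to 0.124). The lower level in Fam134bKO myotubes held in 24 of 27 and was lost without WT myotubes 3 (0.0769), WT myotubes 4 (0.0690) or Fam134bKO myotubes 3 (0.0792). Without both shallow samples Scd1 was still called in that comparison.

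Scd2 (ENSMUSG00000025203, chr19:44293674-44306864) lies on the same chromosome as Scd1 and overlaps the microRNA gene Mir5114. Its counts were 1927, 1989, 1401 and 1165 in WT myoblasts and 3109, 1823, 2527 and 2620 in WT myotubes. In Fam134bKO myoblasts they were 1885, 1368, 2696 and 1645, and in Fam134bKO myotubes 2522, 2699, 1728 and 1595. Groups overlap in every comparison, in WT through myotube replicate 2 alone. On WT differentiation the log2 fold change was 0.65, as for Scd1, with an adjusted p of 0.0537 from limma (95% interval 0.15 to 1.14) that passed in 13 of 27 alternatives. On Fam134bKO differentiation it was 0.18 (95% interval -0.31 to 0.67). Against WT it was 0.22 in Fam134bKO myoblasts and -0.25 in Fam134bKO myotubes (95% interval -0.74 to 0.24, adjusted p = 0.484). A difference between Scd1 and Scd2 in their response to genotype was not tested.

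Fads1 (ENSMUSG00000010663, chr19:10182888-10196877), the delta-5 desaturase that forms arachidonate, was lower in Fam134bKO than in WT myotubes. Its counts were 519, 586, 502 and 374 in WT myoblasts and 613, 629, 570 and 599 in WT myotubes. In Fam134bKO myoblasts they were 463, 440, 601 and 489, and in Fam134bKO myotubes 412, 324, 425 and 422. The 2 myotube groups are far apart relative to their spread, the myoblast groups overlap, and Fam134bKO myotubes also lie below all Fam134bKO myoblasts. In Fam134bKO myotubes Fads1 was at 0.654 of the WT level (log2 fold change -0.61, standard error 0.16, adjusted p = 0.00740 from limma). This held without any 1 sample (adjusted p from 0.00521 to 0.0251), and without both shallow samples the log2 fold change was -0.52 (adjusted p = 0.0516). In myoblasts it was 0.02 (95% interval -0.31 to 0.34). The changes on differentiation were 0.30 in WT (adjusted p = 0.182) and -0.33 in Fam134bKO (adjusted p = 0.112), neither passing alone. Their difference, the interaction of -0.63, had a p of 0.0103 from limma and an adjusted p of 0.131 (95% interval -1.09 to -0.17).

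Fads2 (ENSMUSG00000024665, chr19:10062765-10101746), the delta-6 desaturase that acts before Fads1 on polyunsaturated chains, was close to the limit of detection. Its counts were 1.85, 1.93, 3.0 and 0.891 in WT myoblasts and 2.59, 1.80, 1.86 and 1.98 in WT myotubes, from 1 to 3 reads a sample. In Fam134bKO myoblasts they were 2.62, 4.15, 3.47 and 4.17, from 3 to 5 reads, and in Fam134bKO myotubes 1.94 in replicate 1, from 2 reads, and 0 in the other 3. The 2 shallow samples are among these 3 zeros. Fads2 did not reach the filter and has no fold change or test.

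Among other desaturases and the carriers that feed them electrons, every call in Fam134bKO against WT was upward. In myotubes Fads6 was the only desaturase called, and the other calls were carriers. Of 9 listed, 6 were tested, and 4 were called higher and 0 lower in Fam134bKO against WT myotubes, 66.7% of the list against 23.4% of all genes, with a median log2 fold change of 0.68 against -0.07 for all genes. Cyb5a, the ER cytochrome b5 that donates electrons to SCD and FADS enzymes, was at 189 ± 22.1 in WT and 551 ± 151 in Fam134bKO myoblasts, and at 137 ± 37.9 and 395 ± 173 in myotubes (SD, n = 4). Its log2 fold changes were 1.51 in myoblasts (adjusted p = 5.90e-04 from limma) and 1.43 in myotubes (adjusted p = 0.00101), and both held in all 27 alternatives. Cyb5b, its outer mitochondrial membrane form, was higher in Fam134bKO myotubes by 0.74 (adjusted p = 0.0201), a call lost without WT myotubes 1 or 3 or Fam134bKO myotubes 4 (adjusted p from 0.0557 to 0.0743), with only the 8 myotube samples (0.0593) and without both shallow samples (0.115). Cyb5r3, the reductase of cytochrome b5, was the fourth (0.62, adjusted p = 0.0408), named after its values were seen. Fads6 was called higher in Fam134bKO at both stages (log2 fold changes 1.41 and 1.43), neither call holding throughout. Its myoblast call was lost without any 1 of WT myoblasts 2, 3 or 4 or Fam134bKO myoblasts 1, 3 or 4 (adjusted p from 0.0535 to 0.136). Its myotube call was lost without WT myotubes 1 or Fam134bKO myotubes 2 or 4 (0.0545 to 0.0935), and without both shallow samples the value was 0.57 (adjusted p = 0.359). Fads3, which desaturates sphingoid bases, rose on WT differentiation by 1.37 (adjusted p = 0.00158). On differentiation 1 of the 6 was higher and 1 lower in WT, and 2 were higher and 0 lower in Fam134bKO. In myoblasts 2 were higher and 0 lower in Fam134bKO. Each of these 3 counts is 33.3% of the list, against 23.0%, 33.4% and 15.8% of all genes.

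All 3 acyl-CoA synthetases were called higher on WT differentiation. On Fam134bKO differentiation all 3 log2 fold changes were above 0, and 1 gene, Acsl4, was called. The interaction was called for 0 of the 3, so a difference between the genotypes in this response was not shown. Acsl1 (ENSMUSG00000018796, chr8:46471037-46536051) channels fatty acids to oxidation and storage in muscle and fat. Its counts were low, at 10.1, 16.4, 11 and 9.80 in WT myoblasts and 38.0, 26.1, 25.1 and 23.8 in WT myotubes, from 11 to 44 reads. The Fam134bKO myoblast counts were 31.5, 21.6, 16.5 and 17.5, and in Fam134bKO myotubes 33.9, 27.7, 29.7 and 24.0, from 12 to 36 reads. WT myoblasts are the low group, below every sample of the other 3 groups. Acsl1 was 2.28-fold higher in WT myotubes than in WT myoblasts (log2 fold change 1.19, standard error 0.29, adjusted p = 0.00512 from limma), and the call held in all 26 alternatives that tested it. On Fam134bKO differentiation the log2 fold change was 0.42 (95% interval -0.18 to 1.02). In Fam134bKO against WT myoblasts it was 0.81 (adjusted p = 0.0615, 95% interval 0.21 to 1.41), and it passed with the 8 myoblast samples alone (adjusted p = 0.0470), without WT myoblasts 2 (0.0404) and without Fam134bKO myotubes 2 (0.0488). In myotubes it was 0.04 (95% interval -0.56 to 0.64), and the interaction was -0.77 (adjusted p = 0.336 from limma). Gm45244 overlaps Acsl1 on the opposite strand.

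Acsl3 (ENSMUSG00000032883, chr1:78657825-78707743), an ER and lipid droplet synthetase, had counts of 186, 203, 159 and 111 in WT myoblasts and 424, 235, 478 and 329 in WT myotubes. In Fam134bKO myoblasts the counts were 246, 119, 295 and 151, and in Fam134bKO myotubes 354, 400, 203 and 224. WT myotubes lie above all WT myoblasts, and both Fam134bKO groups are spread widely and overlap. Acsl3 rose 2.19-fold on WT differentiation (log2 fold change 1.13, standard error 0.29, adjusted p = 0.00748 from limma), in all 27 alternatives. On Fam134bKO differentiation the log2 fold change was 0.57 (adjusted p = 0.131, 95% interval -0.02 to 1.17), and 0.35 without Fam134bKO myoblasts 2 (adjusted p = 0.376). The interaction was -0.56 (95% interval -1.40 to 0.29), and -0.34 without Fam134bKO myoblasts 3. Between genotypes it was 0.24 in myoblasts and -0.32 in myotubes (95% interval -0.92 to 0.28), and neither passed. Utp14b overlaps Acsl3 on the same strand, with 0.319% of its last 500 bases shared.

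Acsl4 (ENSMUSG00000031278, chrX:142317993-142390535), which prefers arachidonate and supplies it to phospholipids, was the 1 gene of the 9 called in the same direction on differentiation of both genotypes. Its counts were 173, 172, 121 and 133 in WT myoblasts and 291, 219, 208 and 285 in WT myotubes. In Fam134bKO myoblasts they were 133, 237, 106 and 112, and in Fam134bKO myotubes 259, 225, 238 and 242. WT groups do not overlap, and Fam134bKO groups overlap only through myoblast replicate 2 at 237. Acsl4 was 1.67-fold higher in WT myotubes (log2 fold change 0.74, standard error 0.22, adjusted p = 0.0165 from limma) and 1.73-fold higher in Fam134bKO myotubes (0.79, standard error 0.22, adjusted p = 0.00748). The interaction was 0.05 (95% interval -0.59 to 0.68). Between genotypes the log2 fold change was -0.09 in myoblasts (95% interval -0.54 to 0.36) and -0.04 in myotubes (95% interval -0.49 to 0.41). The WT call was lost without WT myoblasts 3 or 4 or WT myotubes 1 or 4 (adjusted p from 0.0528 to 0.0648), and the Fam134bKO call held in all 27 alternatives.

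Other acyl-CoA synthetases gave calls in both directions. Of 12 listed, 6 were tested: 1 was higher and 0 lower on WT differentiation, 1 higher and 2 lower on Fam134bKO differentiation, 0 higher and 1 lower in Fam134bKO myoblasts, and 1 higher and 1 lower in Fam134bKO myotubes. In that order these are 16.7%, 50%, 16.7% and 33.3% of the list, against 23.0%, 33.4%, 15.8% and 23.4% of all genes. Acsl6, a synthetase of brain and muscle, was at 6.83 ± 1.02 in WT myoblasts and 84.1 ± 41.8 in WT myotubes, and at 0 in all Fam134bKO myoblast samples and 17.6 ± 8.96 in Fam134bKO myotubes (SD, n = 4). It was called higher in myotubes of both genotypes and lower in Fam134bKO at both stages. Slc27a1, a transporter with synthetase activity, was higher in Fam134bKO than in WT myotubes by 0.90 (adjusted p = 0.00175 from limma).

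**Figure D2:**
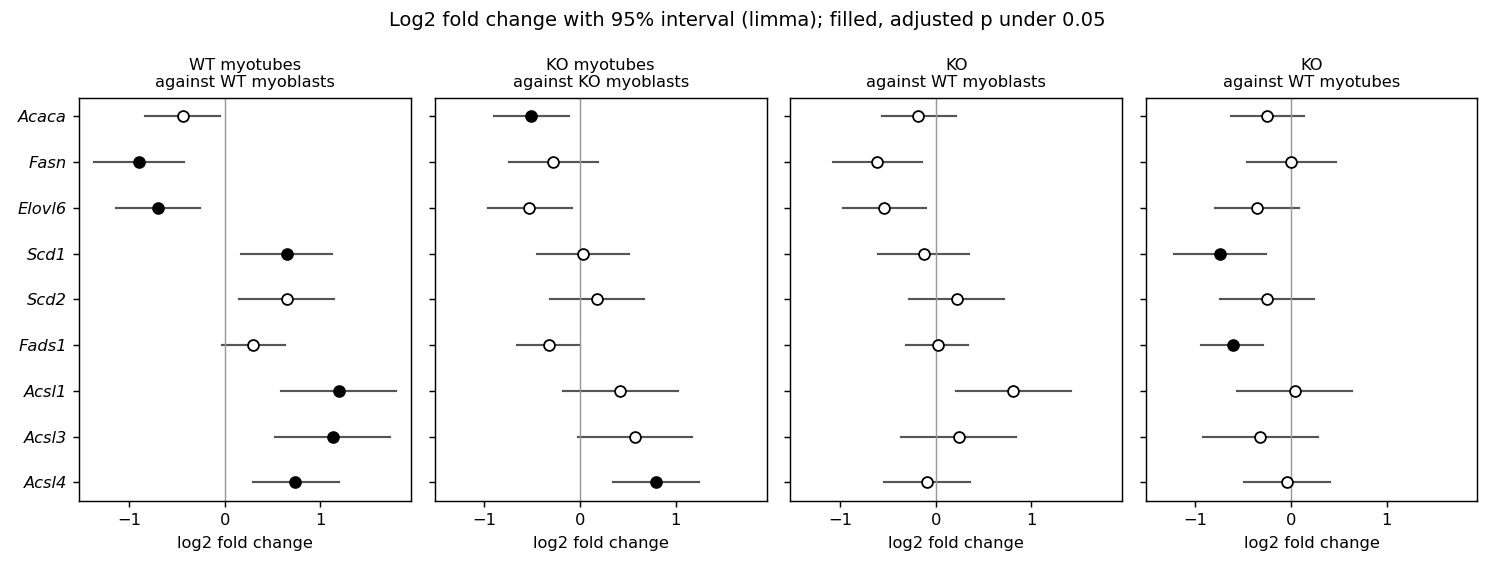
Log2 fold change (horizontal axis) of the 9 tested genes (vertical axis) in the 4 comparisons, with 95% intervals from limma, filled where the adjusted p is under 0.05 (KO is Fam134bKO). In WT differentiation Fasn (-0.89) and Elovl6 (-0.70) are filled below 0 and Scd1, Acsl1, Acsl3 and Acsl4 (0.65 to 1.19) above it, and in Fam134bKO against WT myotubes Scd1 (-0.74) and Fads1 (-0.61) are filled.

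As a check that does not use the shared spread, each of the 9 genes was compared between groups with a two-sided exact permutation test of mean log2 values. The smallest p that 4 against 4 samples allow, 0.0286, was reached by every gene whose groups do not overlap, and none of the 36 tests fell below 0.0791 after adjustment. After adjustment this smallest value depends on how many of the 36 tests reach it. The adjusted values therefore cannot decide on a single gene. On WT differentiation 5 genes did not overlap (Elovl6, Scd1, Acsl1, Acsl3 and Acsl4), against 28.0% of all genes tested (16.1% higher and 12% lower). On Fam134bKO differentiation 3 did not (Acaca, Elovl6 and Fads1), against 27.4% of all genes (14.3% higher and 13.1% lower). Between genotypes 3 did not overlap in myoblasts (Fasn, Elovl6 and Acsl1), against 26.8% of all genes (12.8% higher and 14.0% lower), and 2 in myotubes (Scd1 and Fads1), against 19.4% (8.52% higher and 10.8% lower).

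Within groups, Scd1, Scd2 and Acsl3 deviated together from sample to sample. Each value was expressed as its log2 distance from the mean of its group, and Pearson's r of these distances over the 16 samples was 0.913 between Scd2 and Acsl3, 0.781 between Scd1 and Acsl3 and 0.682 between Scd1 and Scd2. These 3 were the highest of the 36 pairs of the 9 genes. Acsl4 had an r of -0.646 with Scd1, -0.239 with Acsl3 and -0.0571 with Scd2. In Fam134bKO myoblasts replicate 2 was lowest and replicate 3 highest for Scd1, Scd2 and Acsl3, and for Acsl4 replicate 2 was highest and replicate 3 lowest. The genes share libraries and scaling, and these r values are a description with no test. Replicate 2 of Fam134bKO myoblasts also lay far from its group mean over all genes tested (root mean square log2 distance 0.440).

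**Figure D3:**
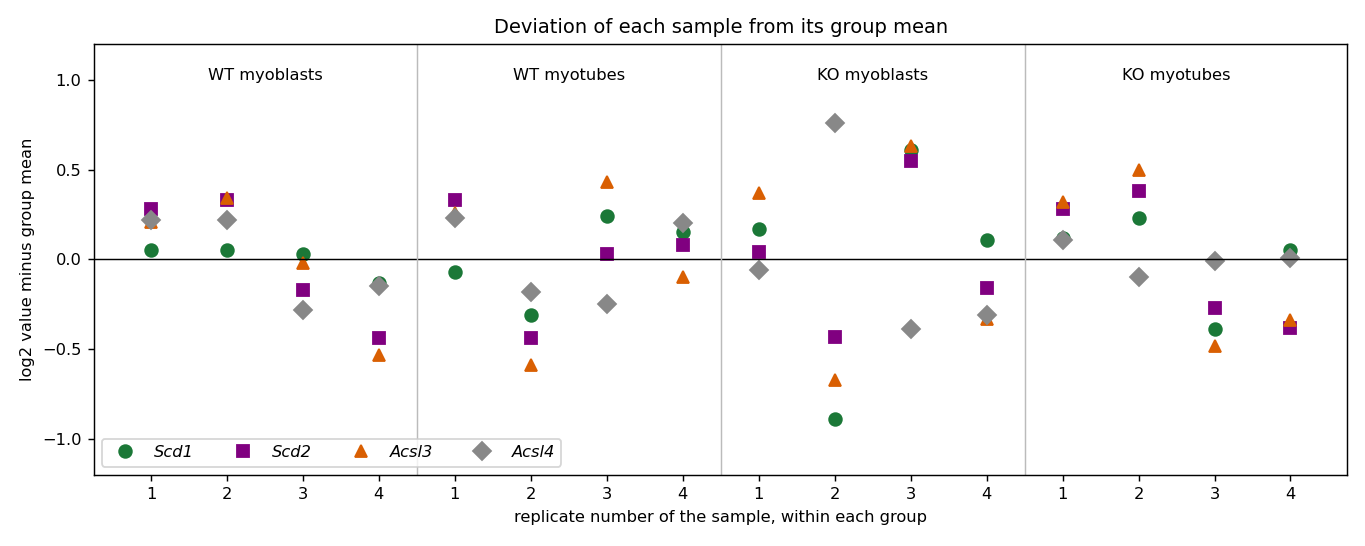
Log2 value of Scd1, Scd2, Acsl3 and Acsl4 minus the mean of the group (vertical axis) in each of the 16 samples (horizontal axis, replicate number within each group; KO is Fam134bKO). Scd1, Scd2 and Acsl3 lie together in most samples, with Fam134bKO myoblasts 2 at -0.89, -0.43 and -0.67 and replicate 3 at 0.61, 0.55 and 0.63, while Acsl4 is at 0.76 and -0.39 in these 2 samples.

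Regulators of lipid synthesis were examined from a list of 13 genes of the SREBP, LXR and ChREBP systems, of which 11 were tested. In Fam134bKO against WT myotubes 1 was higher (Mbtps1, a protease that processes SREBP, named after its values were seen, 0.62, adjusted p = 0.0229 from limma) and 3 were lower, Srebf2 and Srebf1 among them. Srebf2, the SREBP that drives sterol genes, was at 350 ± 32.4 in WT myoblasts and 491 ± 94.8 in WT myotubes, and at 328 ± 87.3 and 209 ± 29.5 in the Fam134bKO groups (SD, n = 4). Its log2 fold change in Fam134bKO myotubes was -1.22 (adjusted p = 9.47e-05 from limma), in all 27 alternatives. The interaction for Srebf2 was -1.09 (adjusted p = 0.0254), and it was lost without any 1 of WT myoblasts 3 or 4, WT myotubes 3 or 4 or Fam134bKO myoblasts 1 or 3 (adjusted p from 0.0549 to 0.0665) and without both shallow samples (-1.02, adjusted p = 0.0552). Srebf1, which drives fatty acid synthesis genes, was at 33.6 ± 16 in WT and 12.2 ± 7.56 in Fam134bKO myotubes, from 3 to 56 reads a sample. Its log2 fold change was -1.45 (adjusted p = 0.0198), lost without WT myotubes 1 or 4 or Fam134bKO myotubes 2 (adjusted p from 0.0585 to 0.0743), with only the 8 myotube samples (0.0700) and without both shallow samples (-0.72, adjusted p = 0.245). On differentiation 4 of the 11 were higher and 1 lower in WT, and 4 were higher and 3 lower in Fam134bKO, which is 45.5% and 63.6% of the list against 23.0% and 33.4% of all genes. In Fam134bKO against WT the calls were 36.4% of the list in myotubes and 18.2% in myoblasts, against 23.4% and 15.8% of all genes. In myoblasts 1 was higher (Insig2, 0.70, adjusted p = 0.0119) and 1 lower in Fam134bKO. The Insig2 call was lost without WT myoblasts 3 (adjusted p = 0.0509).

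Genes that use the products gave mixed calls. Of 18 tested genes of glycerolipid assembly and lipid droplets, 7 were higher and 2 lower on WT differentiation, 5 higher and 1 lower on Fam134bKO differentiation, 3 higher and 1 lower in Fam134bKO myoblasts, and 4 higher and 1 lower in Fam134bKO myotubes. In that order these are 50%, 33.3%, 22.2% and 27.8% of the list, against 23.0%, 33.4%, 15.8% and 23.4% of all genes. Agpat4 (log2 fold change 1.05, adjusted p = 0.00150 from limma), which adds the second acyl chain to glycerol, and Lpin3 (0.98, adjusted p = 0.00584), a phosphatidate phosphatase, were among those higher in Fam134bKO myotubes. Dgat1, which makes triglycerides, was higher on Fam134bKO differentiation by 1.29 (adjusted p = 0.00111), and the droplet coat gene Plin2 was lower on WT differentiation by -1.15 (adjusted p = 2.63e-04). Of 17 tested genes of mitochondrial beta-oxidation, 1 was higher and 3 lower on WT differentiation, 0 higher and 5 lower on Fam134bKO differentiation, 1 higher and 0 lower in Fam134bKO myoblasts and 0 higher and 1 lower in Fam134bKO myotubes. These are 23.5%, 29.4%, 5.88% and 5.88% of the list in either direction, each near or below the same shares of all genes. On Fam134bKO differentiation lower calls alone were 16.1% of all genes. In Fam134bKO against WT myoblasts 15 of the 17 log2 fold changes were above 0 (median 0.28, all genes -0.01). There 7 did not overlap and were higher, and 0 lower, against 12.8% and 14.0% of all genes. In myotubes 8 of the 17 were above 0 (median -0.05, all genes -0.07). Acaa2, the last enzyme of the cycle, was lower on differentiation in both genotypes, at -0.99 (adjusted p = 0.0111, lost without WT myotubes 1 at 0.0547) and -1.10 (adjusted p = 0.00326).

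**Figure D4:**
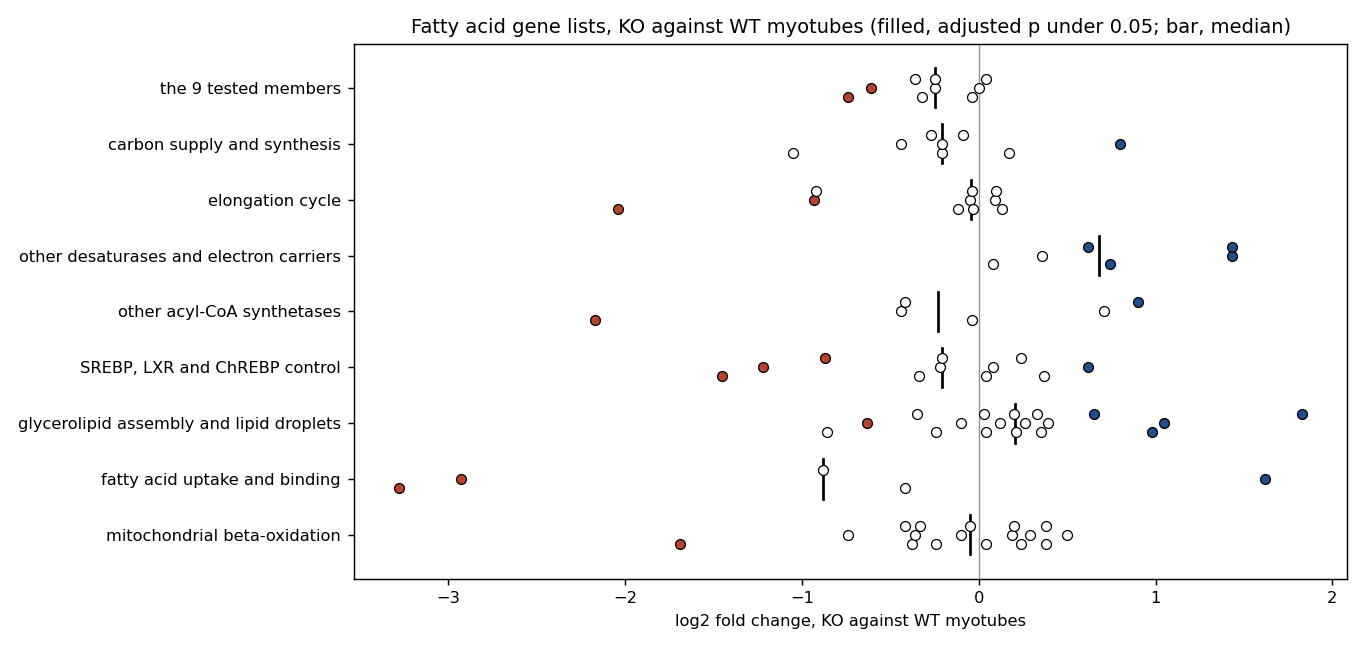
Log2 fold change in Fam134bKO (KO) against WT myotubes (horizontal axis) of each tested gene (points, filled where the adjusted p from limma is under 0.05) in the 9 tested genes of the report and in 8 other lists of fatty acid genes (vertical axis; bar, median of the list). The median of the 9 is -0.25 with Scd1 and Fads1 filled, and the other desaturases and electron carriers have a median of 0.68 with 4 filled points, all above 0.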

How the data were processed

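RNA of 16 C2C12 samples was sequenced single-end after digital mRNA library preparation by a service provider. Per the paper's methods and the submitters' processing notes, the authors trimmed reads, removed ribosomal and phiX reads, aligned with STAR 2.6.0a to mm10 and counted genes with HTSeq. The annotation and the normalization tool are not given in the sources used here. The deposited values are log2 of a normalized count plus 1, made by the authors. Before the log2 step each value above 0 is a whole multiple of 1 read (100% of values, tolerance 0.01), which gave the depth and the limit of 3 reads. The 74 entries without a symbol held 0.0126% of reads and were kept.

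The filter kept genes that reached 10 normalized counts in 4 or more samples. These were fitted with limma 3.58.1 in R 4.3.3 (lmFit, contrasts.fit, eBayes with trend), with 4 group means and no covariates, and a call required p below 0.05 after Benjamini-Hochberg adjustment. The fit shares 1 spread per gene over all groups, although the groups differ in spread. The root mean square distance from the group mean was 0.261 to 0.326 in WT myoblast samples and 0.448 to 0.691 in Fam134bKO myotube samples (log2). In Fam134bKO myoblasts it was 0.440 in replicate 2 and 0.260 to 0.312 in replicates 1, 3 and 4. Calls with only the 8 samples compared therefore differ, as given below. The procedure was tested on simulated counts with the same dispersion in every sample, which does not cover groups of unequal spread. Count models were not run, since the values are log2. Alternatives tried included a pseudocount of 0.5 or 5, no filter or a minimum of 50, 3 other scalings, a replicate block, only the 8 samples compared, sample weights and each sample left out, and, chosen after the data were seen, both shallow samples left out. The 10 genes and all lists were chosen with earlier results of these data known. From each other list at most the 3 called genes of largest absolute change per comparison could be named, and of these the text names a part, and some are not reported here. Coordinates are GRCm38 (GENCODE M21) and promoters RefSeq GRCm38.p6.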

Additional observations from a re-analysis of the deposited data

Results flagged for a closer look

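In 6 of 40 groups of 4 samples (10 genes, 4 groups each) the highest or lowest sample stood apart from the other 3, with a gap to its neighbour of more than 0.83 of the group's range, Dixon's 95% critical value. About 1 group in 20 does so by chance. The high samples were Fasn in Fam134bKO myotubes replicate 4 (normalized count 1037), Elovl6 in WT myoblasts replicate 2 (158), Acsl1 in WT myotubes replicate 1 (38.0) and Fads2 in Fam134bKO myotubes replicate 1 (1.94, from 2 reads). The low samples were Scd1 in WT myoblasts replicate 4 (704) and Fads1 in Fam134bKO myotubes replicate 2 (324). The Fasn and Fads1 samples are the shallow libraries.

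Among the other genes of the pathway, 2 of 81 tested (2.47%, against 3.45% of all genes) differed between the genotypes in their change on differentiation by the interaction test of limma. The interaction was -1.16 for Tecr and -1.09 for Srebf2 on the log2 scale, and each was called in 19 of 26 alternatives.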

How the results depend on the processing

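Of the 45 log2 fold changes of the 9 genes, 9 took the opposite sign in at least 1 of the 27 alternatives, all uncalled in both settings. With scaling to equal totals Scd1 on Fam134bKO differentiation was -0.02, Fasn in Fam134bKO against WT myotubes -0.00 and the Acsl4 interaction -0.01. With sample weights these were -0.27 for Scd1 and -0.05 for Fasn, Scd1 in Fam134bKO against WT myoblasts was 0.07 and the Acaca interaction 0.17. Without both shallow samples Scd1 on Fam134bKO differentiation was -0.10, Fasn in myotubes -0.15, Acsl4 in myotubes 0.00 and the Acaca interaction 0.08. With 1 sample left out at a time the ranges were -0.26 to 0.24 (Scd1, Fam134bKO differentiation), -0.33 to 0.17 (Scd1, myoblasts), -0.20 to 0.24 (Fasn, myotubes), -0.11 to 0.10 (Fads1, myoblasts), -0.34 to 0.04 (Acsl4, myoblasts), -0.13 to 0.03 (Acsl4, myotubes), -0.04 to 0.19 (Acsl1, myotubes), -0.19 to 0.08 (Acaca interaction) and -0.08 to 0.30 (Acsl4 interaction). The 9 genes called in Fam134bKO against WT myoblasts went from 0 to 1 with quantile normalization (Acsl1) and to 3 (Fasn, Elovl6 and Acsl1) with only the 8 samples, with weights or without both shallow samples. On Fam134bKO differentiation 1 of 2 calls, Acsl4, was left under these last 3 settings. In myotubes 1 of 2, Scd1, was left without both shallow samples. With weights 1 interaction, Scd1 at -1.02, was called. Genes not overlapping on Fam134bKO differentiation went from 3 to 5 without both shallow samples. With 1 sample left out, the 9 genes gave 4 to 8 calls on WT and 1 to 3 on Fam134bKO differentiation, 0 to 1 in myoblasts, 1 to 2 in myotubes and 0 to 1 in the interaction, and 5 to 8 did not overlap on WT differentiation (8 without WT myotubes 2). Over all genes, weights called 4683 on WT differentiation (2474 without), 3773 in myoblasts (1697) and 1221 in the interaction (371). Only the 8 samples called 2656 in myoblasts and 1565 in myotubes (2521 with all). Leaving out 1 sample gave 1564 (without WT myotubes 1) to 2949 on WT differentiation and 231 (without Fam134bKO myoblasts 1) to 521 in the interaction. Calls on WT differentiation were 1488 higher and 986 lower, and 1418 and 1434 with quantile normalization. The cause was not tested where the setting is not fewer samples. With a replicate block Scd2 on WT differentiation passed (0.65, adjusted p = 0.0498), Fads6 in myoblasts was lost (adjusted p = 0.0548), and 2495 genes were called on WT differentiation. It changed no other call of the 9 genes. Same-numbered samples of different groups had a mean correlation of deviations of 0.0330 (range -0.223 to 0.369) and others -0.0108 (range -0.350 to 0.370), with no test. The sample titles do not say whether same-numbered samples were handled together, and these correlations cannot settle it. Samples of 1484750 reads limit genes of few reads, such as Acsl1 and Fads2.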

Other observations

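For each of the 9 tested genes, the other tested genes with the highest Pearson correlation of log2 values over the 16 samples are given as a description, with no test, since the samples share 4 group means. Scd1 was followed most closely by Ptdss2 (r = 0.939), a phosphatidylserine synthase, and N4bp3 (0.920). Scd2 was nearest to COX3 (0.938), a mitochondrially encoded cytochrome oxidase subunit, and Tusc3 (0.920). Acsl3 was nearest to Slc2a1 (0.946), a glucose transporter, and Sgpl1 (0.930), which degrades sphingosine phosphate. Fads1 was nearest to Rom1 (0.857) and Srebf2 (0.849). Acaca was nearest to Kif22 and Rrm1 (0.890 each), a mitotic kinesin and a ribonucleotide reductase subunit. Fasn was nearest to Pea15a (0.902) and Tsc22d1 (0.898), and Elovl6 to Plscr2 (0.896) and Slc25a24 (0.893). Acsl1 was nearest to Arhgef3 (0.90) and Sorbs2 (0.879), and Acsl4 to Inppl1 (0.889) and Rbfox2 (0.888).

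Genes of fatty acid uptake and binding were called in every comparison between groups. Of the 5 tested, 2 were higher and 2 lower on WT differentiation, 1 higher and 2 lower on Fam134bKO differentiation, 1 higher and 1 lower in Fam134bKO myoblasts, and 1 higher and 2 lower in Fam134bKO myotubes. In that order these are 80%, 60%, 40% and 60% of the list, against 23.0%, 33.4%, 15.8% and 23.4% of all genes. Fabp3, the heart and muscle fatty acid binding protein, was at 15.4 ± 3.65 and 19.2 ± 2.98 in WT myoblasts and myotubes, and at 0.634 ± 0.802 and 2.27 ± 3.91 in Fam134bKO (SD, n = 4), and was called lower in Fam134bKO at both stages in all 26 alternatives. Cd36, a fatty acid transporter, was at 1.40 ± 1.21 and 26.3 ± 15.1 in WT and at 0 and 4.74 ± 7.59 in Fam134bKO, and was called lower in Fam134bKO myotubes in all 26 alternatives. Both genes lay near the limit of detection in part of the groups. Cd36 was at 3 reads or fewer in every myoblast sample of both genotypes, and Fabp3 in every Fam134bKO myoblast sample. Lpl, the lipase that releases fatty acids from lipoproteins, was at 9.56 ± 3.54 in WT and 81.1 ± 18.5 in Fam134bKO myoblasts, and at 85.2 ± 46.1 and 258 ± 109 in myotubes (SD, n = 4). All 4 Lpl comparisons were called, in all 27 alternatives. Dbi, the acyl-CoA binding protein, was lower on Fam134bKO differentiation, at 760 against 1581 (log2 fold change -1.11, adjusted p = 0.00131 from limma). The droplet coat gene Plin4 was at 11.6 ± 2.86 in WT and 66.0 ± 23.1 in Fam134bKO myoblasts (SD, n = 4) and was called lower on differentiation in both genotypes, to 2.51 ± 0.795 and 12.3 ± 6.0. Its level in WT myotubes is near the limit of detection.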
